A study of Homo sapiens with 8 samples.

Results

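The core pluripotency factors described here are 10 genes, POU5F1, NANOG, SOX2, PRDM14, DPPA4, LIN28A, LIN28B, L1TD1, SALL4 and ZFP42, followed across cells on gels of different stiffness. They were chosen by gene symbol, as genes known for the undifferentiated state of human embryonic stem cells. All 10 had 1 row in each of the authors' tables, out of 34690 gene loci at day 3.5 and 33575 at day 0, and all were tested by the authors on both days. All reached 1 FPKM (fragments per length of transcript and per number of fragments mapped) in every group, so none was lost to a filter on low values.

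RNA sequencing had been performed on the human embryonic stem cell line H9. The 4 groups were cells after 3.5 days of induction on a soft 400 Pa gel, cells after 3.5 days of induction on a stiff 60 kPa gel, undifferentiated cells (day 0) on the 400 Pa gel and undifferentiated cells on the 60 kPa gel. Induction was with bFGF, Activin, VEGF and BMP4, a mixture used here to make mesoderm progenitors, and the labels give feeder-conditioned medium for stem cells on the gels. No allele or transgene is named in the labels, and all groups share 1 cell line. Each group has 2 libraries, but the authors' tables give 1 pooled FPKM per group, so no value has an SD, and the read depth is unknown. The deposited p- and q-values rest on only 2 libraries per group, whose separate culture is not stated. They may therefore reflect technical spread.

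Pluripotent cells are held in their state by a small network of DNA-binding proteins. POU5F1 (OCT4) and SOX2 bind neighbouring motifs as a pair, NANOG joins them at many enhancers, and each of these genes is a target of the set. PRDM14 and SALL4 are zinc-finger factors that act with this network in human cells, DPPA4 is a chromatin-associated protein, and ZFP42 (REX1) is a zinc-finger protein widely used as a marker. LIN28A and LIN28B are RNA-binding proteins that block maturation of the let-7 microRNAs, and L1TD1 is an RNA-binding protein derived from a LINE-1 transposon. Exit from pluripotency towards mesoderm normally lowers most of these transcripts, and SOX2 is also a gene of early neural cells.

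The clearest result concerned PRDM14. After 3.5 days of induction its level was 4.45 FPKM on the 400 Pa gel, against 17.1 FPKM on the 60 kPa gel. The soft gel therefore had the lower level, 3.84-fold below the stiff gel. SOX2, LIN28A and SALL4 also had lower values on the soft gel at day 3.5, without passing the authors' correction. The values of POU5F1, NANOG, L1TD1 and LIN28B differed little between the gels, and how well L1TD1 was measured is not known. At day 0 no member passed the test. The values fit the labelled cell states in part. At day 0 POU5F1 stood within the top 2.77% of genes on 400 Pa and the top 2.49% on 60 kPa. NANOG reached only the top 39.5% on 400 Pa and 29.5% on 60 kPa, and ZFP42 the top 70.5% and 79.2%. The NANOG rank is uncertain, because reads may be shared with its near-identical copy NANOGP8. That copy was listed at 23.5 FPKM on 400 Pa and 29.9 FPKM on 60 kPa at day 0. Only 2 of 19 primitive streak and mesoderm markers were tested at day 0. Both had an unadjusted p below 0.05 in the authors' deposited table, 1 in each direction, beside 1.86% of all genes tested. HAND2 and GATA4 were listed at 0 on 400 Pa, but the mesoderm marker KDR was at 9.07 FPKM on 400 Pa and 13.5 FPKM on 60 kPa. In bulk RNA, fewer cells that express a gene and less RNA per cell cannot be told apart.

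**Figure D1:**
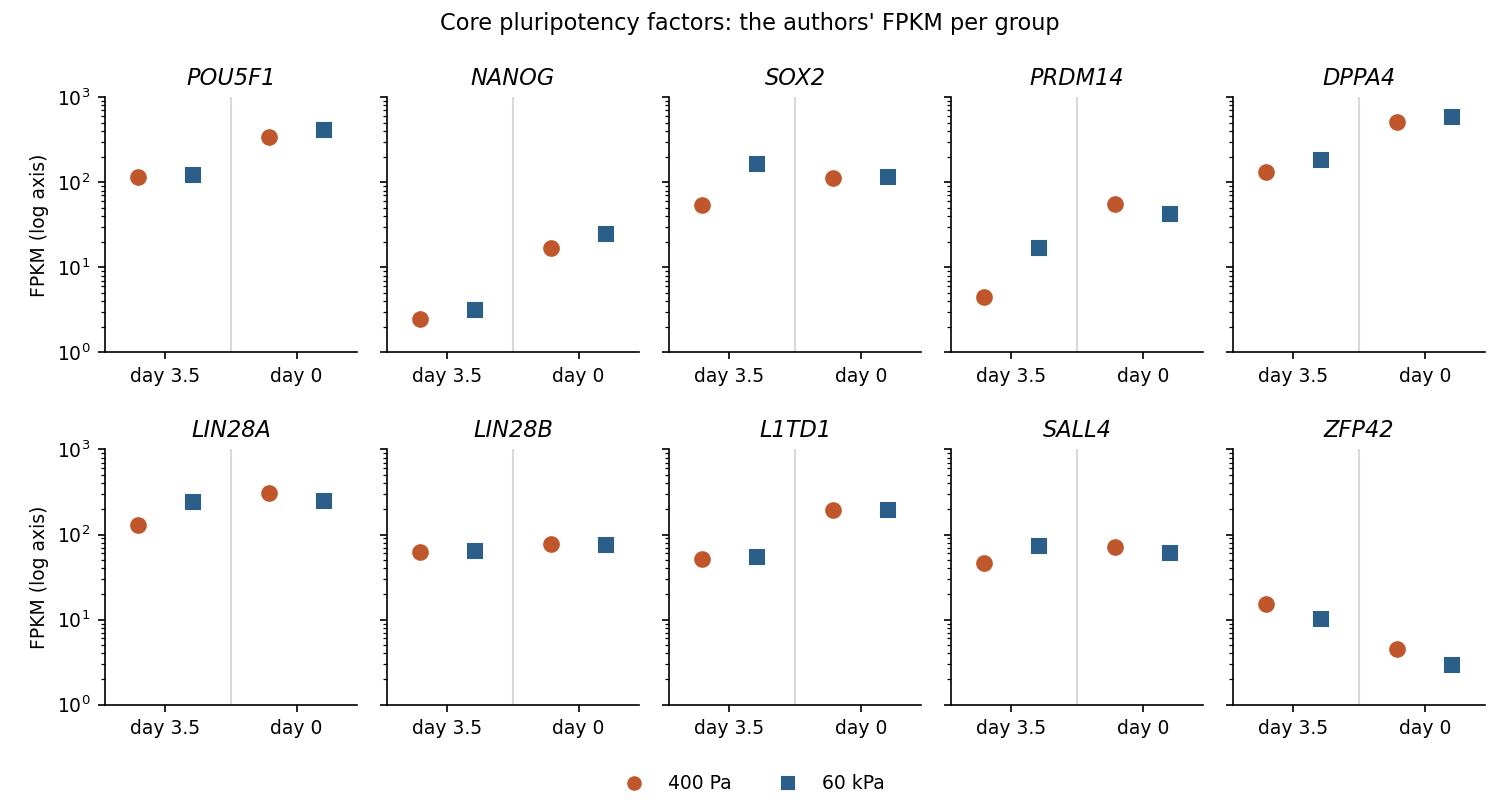
Level of each of the 10 genes in FPKM on a log axis, 1 point per group (the authors' pooled value, no error bar), with 400 Pa as circles and 60 kPa as squares. SOX2 and PRDM14 separate by gel at day 3.5 (54.0 against 164 FPKM, and 4.45 against 17.1 FPKM), whereas POU5F1 and L1TD1 separate by day.

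The POU5F1 protein, OCT4, is the factor without which the undifferentiated state is lost. At day 3.5 POU5F1 stood at 114 FPKM on 400 Pa and 122 FPKM on 60 kPa, and at day 0 at 339.8 FPKM on 400 Pa and 409 FPKM on 60 kPa. The gels were close on both days and the days lay apart. On the log2((FPKM + 1) 400 Pa / (FPKM + 1) 60 kPa) scale used for every stiffness change below, its change was -0.09 at day 3.5 (implied SE 0.47; p = 0.772 in the authors' deposited table) and -0.27 at day 0 (implied SE 0.32; p = 0.229 in the authors' deposited table). The implied SE was obtained by dividing the authors' log2 ratio by their statistic, and is an approximation for a ratio with no pseudocount, whereas the change has a pseudocount of 1. The authors' p did not follow from that statistic as from a normal score. A statistic of 1.24 for SALL4 at day 3.5 went with p = 0.0319 in the authors' deposited table. An implied SE is therefore not the error on which the deposited p rests. A modest difference between the gels could have gone undetected for POU5F1 at day 3.5.

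Reads of POU5F1 may be shared with near-identical copies elsewhere in the genome, which makes its level uncertain. The retrocopy POU5F1P3 was listed at 63.4 FPKM on 400 Pa and 64.2 FPKM on 60 kPa at day 3.5, and at 197 FPKM on 400 Pa and 233 FPKM on 60 kPa at day 0. POU5F1P4 was listed at 47.9 FPKM on 400 Pa and 56.5 FPKM on 60 kPa at day 3.5, and POU5F1B at 29.9 FPKM on 400 Pa and 32.4 FPKM on 60 kPa. None of these copies was called on either day in the authors' deposited tables. POU5F1 also overlaps TCF19 in the authors' locus on chromosome 6 (hg19, 31126158 to 31148508), and the strand setting of the counting is not given in the sources used here.

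NANOG, a homeodomain protein whose level varies between pluripotent cells, was the lowest member at day 3.5. Its level was 2.46 FPKM on 400 Pa and 3.16 FPKM on 60 kPa at day 3.5, against 16.7 FPKM on 400 Pa and 24.9 FPKM on 60 kPa at day 0. The soft gel had the lower value on both days. The change was -0.27 (implied SE 1.09; p = 0.550 in the authors' deposited table) at day 3.5 and -0.55 (implied SE 0.60; p = 0.173 in the authors' deposited table) at day 0. Both changes were smaller than their implied SEs. The nearly identical retrogene NANOGP8 was listed at 2.27 FPKM on 400 Pa and 5.69 FPKM on 60 kPa at day 3.5 (p = 0.054 in the authors' deposited table), near or above the level of NANOG itself. At day 0 NANOGP8 was at 23.5 FPKM on 400 Pa and 29.9 FPKM on 60 kPa, above NANOG on both gels. Reads of the pair therefore cannot be separated with certainty. The NANOG row lies on chromosome 12 (hg19, 7940390 to 7948953) and overlaps no other row.

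SOX2, the HMG-box partner of POU5F1, had values far apart on the gels at day 3.5 and close at day 0. At day 3.5 it was at 54.0 FPKM on 400 Pa and 164 FPKM on 60 kPa, which makes it 3.04-fold higher on the stiff gel. At day 0 its levels were 114 FPKM on 400 Pa and 116 FPKM on 60 kPa. The change at day 3.5 was -1.59 (implied SE 0.82; p = 0.0190 and q = 0.519 in the authors' deposited table), so it did not pass the correction over all genes, and at day 0 it was -0.03 (implied SE 0.48; p = 0.919 in the authors' deposited table). The interval that the authors list for SOX2 on chromosome 3 (hg19, 180319897 to 181554668) is 1234772 bases long and is shared by 11 rows at day 3.5 and 7 at day 0, among them DNAJC19, TTC14, FXR1 and CCDC39. It is therefore not the span of the gene, which has 2513 bases in GENCODE release 29, and reads of long transcripts that overlap SOX2 cannot be set apart from its own.

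The windows around the start sites of NANOG, SOX2 and DPPA4 are shown because each holds a match to a POU motif, the letters that POU5F1 recognises, and the NANOG window also one to the SOX core. The sequences come from RefSeq on GRCh38.p14, another build than that of the tables, and run 250 bases before to 50 bases after the start. Capitals mark the matches. Windows were found for 6 of the 10 genes. The motifs were chosen with the sequences in view, and all were searched on both strands. Strands of matches are given relative to the sequence as printed.
NANOG (GRCh38.p14, chr12:7789152-7789451, plus strand): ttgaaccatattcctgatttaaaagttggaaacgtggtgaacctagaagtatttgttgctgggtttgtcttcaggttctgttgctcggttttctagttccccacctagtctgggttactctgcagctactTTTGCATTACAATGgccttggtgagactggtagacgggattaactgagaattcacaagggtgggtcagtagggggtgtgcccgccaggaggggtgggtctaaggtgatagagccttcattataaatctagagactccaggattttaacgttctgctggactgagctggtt
SOX2 (GRCh38.p14, chr3:181711675-181711974, plus strand): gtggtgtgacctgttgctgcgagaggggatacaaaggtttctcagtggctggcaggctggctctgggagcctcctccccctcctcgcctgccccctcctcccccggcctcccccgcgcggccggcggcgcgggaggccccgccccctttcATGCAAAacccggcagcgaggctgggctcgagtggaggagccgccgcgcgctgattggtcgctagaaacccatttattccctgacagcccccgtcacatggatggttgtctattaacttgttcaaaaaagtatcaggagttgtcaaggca
DPPA4 (GRCh38.p14, chr3:109337497-109337796, minus strand): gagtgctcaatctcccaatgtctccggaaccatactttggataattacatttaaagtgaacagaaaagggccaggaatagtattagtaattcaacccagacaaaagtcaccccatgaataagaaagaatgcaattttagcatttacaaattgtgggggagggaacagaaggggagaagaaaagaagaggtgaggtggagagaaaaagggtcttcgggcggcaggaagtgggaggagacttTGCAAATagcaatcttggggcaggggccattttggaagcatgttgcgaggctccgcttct

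In the NANOG window the POU motif ATGCAAA lies at -120 to -114 from the start and the SOX core CATTGT at -112 to -107, both on the strand opposite to the printed one and 1 base apart. Together they form the composite CATTGTNATGCAAA, which only 3 of 35116 human promoter windows of this length hold (0.00854%). The SOX2 window has ATGCAAA at -100 to -94 on the printed strand, and the DPPA4 window has TGCAAAT, the overlapping 3′ part of the octamer, at -10 to -4, also on the printed strand. These letters are common: ATGCAAA occurs in 4.46% of windows, TGCAAAT in 4.20%, either of them in 6.78%, and CATTGT in 10.8%. The windows of L1TD1 and ZFP42 hold none of the motifs, and of the 2 windows of LIN28B 1 holds CATTGT at -140 to -135. A match describes the letters of the window, and binding was not measured. The NANOG and DPPA4 RNAs were lower at day 3.5 on both gels, whereas SOX2, whose window carries a POU motif as well, was lower at day 3.5 on the soft gel and not on the stiff gel. L1TD1, without a match, was lower at day 3.5 on both gels too, and ZFP42, also without one, was higher on both. These comparisons of days have no test, and a link between motif and RNA level was not tested.

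DPPA4, which binds chromatin in pluripotent cells, was the highest member before induction. It stood at 131 FPKM on 400 Pa and 181 FPKM on 60 kPa at day 3.5, against 518 FPKM on 400 Pa and 579.8 FPKM on 60 kPa at day 0. Its change between the gels was -0.47 at day 3.5 (implied SE 0.58; p = 0.223 in the authors' deposited table) and -0.16 at day 0 (implied SE 0.42; p = 0.553 in the authors' deposited table). L1TD1 was at 51.0 FPKM on 400 Pa and 54.8 FPKM on 60 kPa at day 3.5, and at 193 FPKM on 400 Pa and 194 FPKM on 60 kPa at day 0. The values of L1TD1 were nearly equal between the gels on both days. Its implied SE was very large, at 11.3 at day 3.5 and 3.26 at day 0. The statistics of L1TD1 were very small, 0.00926 at day 3.5 and 0.00297 at day 0, which makes that division unreliable. How well the near-equality was measured is therefore not known. Its p was 0.846 at day 3.5 and 0.981 at day 0 in the authors' deposited tables. The row of L1TD1 shares its interval with RP5-1155K23.4.

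The LIN28 paralogues share their let-7 targets and were read side by side. LIN28A, at day 3.5 the highest member on 60 kPa and level with DPPA4 on 400 Pa, was at 131 FPKM on 400 Pa and 239 FPKM on 60 kPa at day 3.5, and at 304 FPKM on 400 Pa and 249 FPKM on 60 kPa at day 0. The soft gel had the lower level at day 3.5, by a change of -0.86 (implied SE 0.41; p = 0.00315 and q = 0.165 in the authors' deposited table), and the higher one at day 0, by 0.29 (implied SE 0.31; p = 0.182 in the authors' deposited table). LIN28B was at 61.8 FPKM on 400 Pa and 64.8 FPKM on 60 kPa at day 3.5, and at 77.3 FPKM on 400 Pa and 74.8 FPKM on 60 kPa at day 0. All 4 values of LIN28B lay close together, with changes of -0.07 (implied SE 0.42) and 0.05 (implied SE 0.31). The interval of LIN28B on chromosome 6 is shared with 6 unnamed loci at day 3.5.

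SALL4, a zinc-finger factor that binds AT-rich DNA, was at 46.1 FPKM on 400 Pa and 73.8 FPKM on 60 kPa at day 3.5, and at 71.7 FPKM on 400 Pa and 60.1 FPKM on 60 kPa at day 0. The order of the gels was opposite on the 2 days, but neither change passed the correction: it was -0.67 at day 3.5 (implied SE 0.55; p = 0.0319 and q = 0.712 in the authors' deposited table) and 0.25 at day 0 (implied SE 0.46; p = 0.380 in the authors' deposited table). ZFP42 was the only member with a higher value on the soft gel at day 3.5. It was at 15.3 FPKM on 400 Pa and 10.2 FPKM on 60 kPa at day 3.5, and at 4.49 FPKM on 400 Pa and 2.90 FPKM on 60 kPa at day 0, with the higher value on the soft gel both times and the higher values at day 3.5. Its change between the gels was 0.53 at day 3.5 (implied SE 0.54; p = 0.128 in the authors' deposited table) and 0.49 at day 0 (implied SE 0.68; p = 0.474 in the authors' deposited table).

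PRDM14 acts with repressor complexes in stem cells and is needed for primordial germ cells in the mouse. At day 3.5 it was at 4.45 FPKM on 400 Pa and 17.1 FPKM on 60 kPa, and at day 0 at 55.5 FPKM on 400 Pa and 42.1 FPKM on 60 kPa. The soft gel thus had the lowest of the 4 values at day 3.5 and the highest at day 0. PRDM14 fell on the soft gel relative to the stiff gel at day 3.5, with a log2 change of -1.73 (implied SE 0.66; p = 5e-05 and q = 0.00783 in the authors' deposited table), and that p, shared by 132 loci, is the smallest the table holds. At day 0 the change was 0.39 (implied SE 0.38; p = 0.122 in the authors' deposited table). Its row covers 25791 bases on chromosome 8 (hg19, 70958970 to 70984760), with no other row in the interval. In rank among genes with at least 1 FPKM, PRDM14 stood within the top 70.5% on 400 Pa and the top 36.6% on 60 kPa at day 3.5, against the top 14.6% on 400 Pa and the top 19.0% on 60 kPa at day 0.

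**Figure D2:**
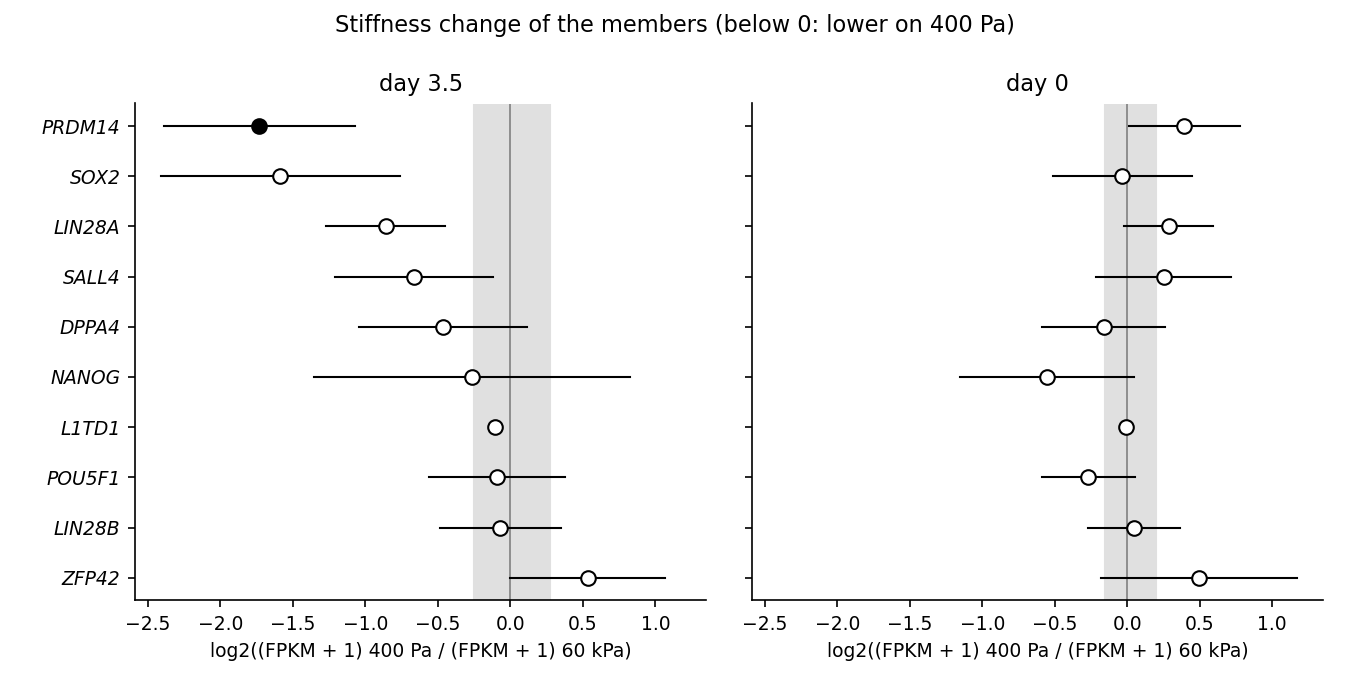
Stiffness change of each member, log2((FPKM + 1) 400 Pa / (FPKM + 1) 60 kPa), at day 3.5 (left) and day 0 (right), where points below 0 are lower on 400 Pa, a filled point passed q below 0.05 in the authors' deposited table, bars are ± 1 implied SE and the grey band holds the middle 50% of all genes tested. L1TD1 has no bar because its implied SE is too large to draw, and PRDM14 at -1.73 is the filled point.

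Read as a group at day 3.5, 1 of 10 members passed q below 0.05 in the authors' deposited table, beside 1.34% of the 18229 genes tested, and it was higher on 60 kPa, as were 0.252% of the genes tested. At an unadjusted p below 0.05 there were 4 of 10 members (PRDM14, LIN28A, SOX2 and SALL4), beside 5.93% of all genes, and all 4 were higher on 60 kPa, beside 2.13% of all genes. A level at least 2-fold higher on 60 kPa was seen for 2 of 10 members, PRDM14 and SOX2, beside 3.04% of all genes. In all, 9 of 10 members had a change below 0, beside 48.1% of all genes tested. The median change was -0.37, against 0.02 for all genes tested, whose middle 50% ran between -0.25 and 0.28. POU5F1 (-0.09), L1TD1 (-0.10) and LIN28B (-0.07) lay within that range. The median without SOX2, whose row is the least certain, was -0.27.

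At day 0, 0 of 10 members passed q below 0.05 in the authors' deposited table, beside 0.139% of the 17318 genes tested, and 0 of 10 had an unadjusted p below 0.05, beside 1.86% of all genes. There were 5 of 10 members below 0, beside 46.1% of all genes tested, with a median change of 0.02, equal to the all-gene median of 0.02. SOX2, PRDM14, LIN28A and SALL4, the 4 members with the lowest changes at day 3.5, had changes of -0.03, 0.39, 0.29 and 0.25 at day 0. The rows thus ran in different directions on the 2 days for PRDM14, LIN28A and SALL4, which calls for the test of the difference itself.

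That test compared, for each gene, the deposited log2 ratio of 60 kPa over 400 Pa at day 3.5 with the one at day 0, so that a positive difference means a greater advantage of the stiff gel at day 3.5. The difference was 2.34 for PRDM14 (implied SE 0.76), 1.15 for LIN28A (implied SE 0.51), 1.57 for SOX2 (implied SE 0.95) and 0.93 for SALL4 (implied SE 0.72). Divided by their errors, these differences gave z values of 3.08 for PRDM14, 2.27 for LIN28A, 1.65 for SOX2 and 1.30 for SALL4. None passed a two-sided normal approximation with Benjamini-Hochberg adjustment over the 15325 loci compared, where 11 loci did. At an unadjusted p below 0.05 there were 2 of 10 members, beside 0.894% of the loci. That share is smaller than a threshold of 0.05 would give if no locus differed, so the test was conservative and could miss real differences. A dependence of the stiffness change on the day was not established for any member, and the test could not exclude one.

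Since FPKM is a share of each group's RNA, the members were also read as ratios to POU5F1 within a group, which no scaling between groups or tables can alter. SOX2 amounted to 0.474 of the POU5F1 level on 400 Pa and 1.35 on 60 kPa at day 3.5, against 0.334 on 400 Pa and 0.284 on 60 kPa at day 0. On the induced stiff gel SOX2 was thus above POU5F1, and in the other 3 groups below it. LIN28A amounted to 1.15 on 400 Pa and 1.96 on 60 kPa at day 3.5, against 0.894 on 400 Pa and 0.608 on 60 kPa at day 0. PRDM14 amounted to 0.0391 on 400 Pa and 0.141 on 60 kPa at day 3.5, against 0.163 on 400 Pa and 0.103 on 60 kPa at day 0. NANOG kept a low ratio of 0.0216 on 400 Pa and 0.0260 on 60 kPa at day 3.5, against 0.0490 on 400 Pa and 0.0609 on 60 kPa at day 0. These ratios have no error of their own and were not tested. They also carry the uncertainty of the POU5F1 level, whose reads may be shared with its copies, and for SOX2 that of its shared interval. The NANOG ratio also carries the uncertainty of reads that may be shared with NANOGP8.

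The order of the members by level was the same on both gels at day 0, running down through DPPA4, POU5F1, LIN28A, L1TD1, SOX2, LIN28B, SALL4, PRDM14, NANOG and ZFP42. At day 3.5 the order on 400 Pa was LIN28A, DPPA4, POU5F1, LIN28B, SOX2, L1TD1, SALL4, ZFP42, PRDM14 and NANOG. On 60 kPa it was LIN28A, DPPA4, SOX2, POU5F1, SALL4, LIN28B, L1TD1, PRDM14, ZFP42 and NANOG. With no spread between libraries, neighbours such as LIN28A at 131.02 and DPPA4 at 130.55 FPKM on 400 Pa cannot be ranked with confidence. The summed level of the 10 members was 610.5 FPKM on 400 Pa and 929 FPKM on 60 kPa at day 3.5, and 1693 FPKM on 400 Pa and 1753 FPKM on 60 kPa at day 0.

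The change over induction could only be described, since the tables of the days were made separately and the authors' tables hold no test across them. On the log2((FPKM + 1) day 3.5 / (FPKM + 1) day 0) scale, 7 of 10 members were at least 2-fold lower at day 3.5 on 400 Pa, beside 5.99% of the 16288 genes compared. On 60 kPa 5 of 10 were, beside 4.22% of the 16015 genes compared. The median member stood at -1.39 on 400 Pa and -0.73 on 60 kPa, and the median of all genes at 0.00 on both gels. Housekeeping genes had medians of 0.11 on 400 Pa and -0.04 on 60 kPa, although ACTB was at -1.16 on 400 Pa, so a single reference gene would not serve.

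The members can be set out by their values on the 2 gels. Those lower at day 3.5 by much the same amount on both gels were POU5F1 (-1.57 on 400 Pa and -1.74 on 60 kPa), NANOG (-2.35 on 400 Pa and -2.64 on 60 kPa), DPPA4 (-1.98 on 400 Pa and -1.68 on 60 kPa) and L1TD1 (-1.90 on 400 Pa and -1.80 on 60 kPa). For POU5F1 this is 2.98-fold lower on 400 Pa and 3.37-fold lower on 60 kPa. PRDM14 was lower on both but by different amounts, -3.38 on 400 Pa and -1.25 on 60 kPa. LIN28A was lower on 400 Pa, at -1.21, and near its day 0 level on 60 kPa, at -0.06. SOX2 was at -1.06 on 400 Pa and 0.49 on 60 kPa, and SALL4 at -0.63 on 400 Pa and 0.29 on 60 kPa. LIN28B stood near its day 0 level, at -0.32 on 400 Pa and -0.20 on 60 kPa, while ZFP42 was higher at day 3.5 on both gels, at 1.57 on 400 Pa and 1.53 on 60 kPa.

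**Figure D3:**
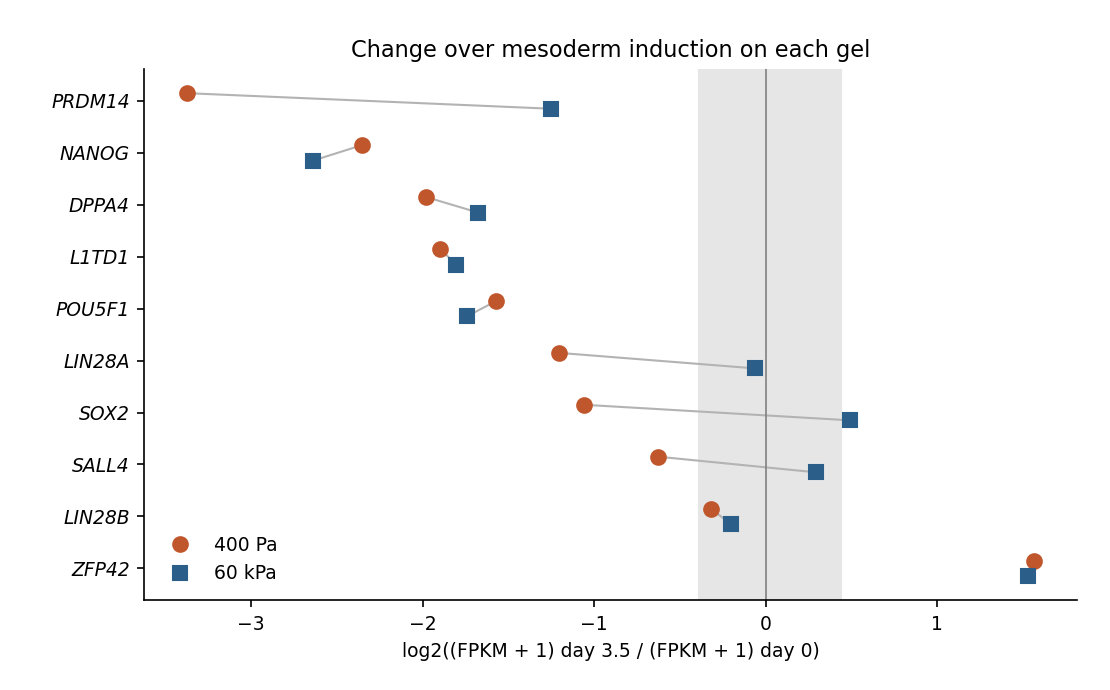
Change of each member over induction, log2((FPKM + 1) day 3.5 / (FPKM + 1) day 0), on 400 Pa (circles) and 60 kPa (squares), with a grey line joining the pair and a grey band for the middle 50% of all genes. PRDM14, SOX2 and LIN28A have the widest gaps between gels, and POU5F1 and L1TD1 lie close together.

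Other genes of the primed pluripotent state were read from a list of 25, of which 21 were tested at day 3.5. Of these, 18 had a change below 0, beside 48.1% of all genes tested, with a median of -0.36. Of the 21, 2 passed q below 0.05 in the authors' deposited table, both higher on 60 kPa, beside 0.252% of all genes tested. SFRP2, a secreted WNT modulator, was at 11.7 FPKM on 400 Pa and 30.5 FPKM on 60 kPa (change -1.31, implied SE 0.49; q = 0.00783 in the authors' deposited table). USP44, a deubiquitinase of histone H2B, was at 17.3 FPKM on 400 Pa and 41.9 FPKM on 60 kPa (change -1.23, implied SE 0.59; q = 0.0278 in the authors' deposited table). Both fell on the soft gel relative to the stiff gel. At day 0 the same list already had 18 of 22 tested genes below 0, beside 46.1% of all genes tested, with a median of -0.10 and none called. SFRP2 was then at 31.4 FPKM on 400 Pa and 44.6 FPKM on 60 kPa (p = 0.0322 in the authors' deposited table). LEFTY1 and LEFTY2 had no row of their own. Over induction 16 of 22 such genes were at least 2-fold lower on 400 Pa (median -1.85), beside 5.99% of all genes compared. On 60 kPa 15 of 22 were (median -1.48), beside 4.22%, and neither has a test.

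Genes that mark the naive pluripotent state were mostly low, with 5 of 15 tested at day 3.5 and a median change of 0.34. Of them TBX3, a T-box factor also active in mesoderm, rose on the soft gel relative to the stiff gel, with 42.4 FPKM on 400 Pa and 4.90 FPKM on 60 kPa (change 2.88, implied SE 0.90; q = 0.00783 in the authors' deposited table). At day 0 TBX3 was at 0.0639 FPKM on 400 Pa and 0.0246 FPKM on 60 kPa, too low to be tested. KLF17 was hardly present on either gel at day 3.5, at 0.0103 FPKM on 400 Pa and 0 on 60 kPa, and was not tested.

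The LIN28 and let-7 axis, which includes let-7 targets and the enzymes that process the microRNA, had 18 of 19 genes tested at day 3.5 and none called in the authors' deposited table. At an unadjusted p below 0.05 there were 2, 1 in each direction, beside 5.93% of all genes tested. The median change was -0.14 with 13 of 18 below 0, beside 48.1% of all genes tested. The let-7 target HMGA1, a chromatin protein, was at 199 FPKM on 400 Pa and 262 FPKM on 60 kPa (change -0.39; p = 0.168 in the authors' deposited table). TRIM71, a let-7 target that restrains differentiation, was at 36.2 FPKM on 400 Pa and 58.5 FPKM on 60 kPa (change -0.68; p = 0.0155 and q = 0.461 in the authors' deposited table). IGF2BP1, which binds mRNA, was at 56.8 FPKM on 400 Pa and 64.8 FPKM on 60 kPa, and DROSHA, the nuclear microRNA-processing enzyme, at 43.7 FPKM on 400 Pa and 60.1 FPKM on 60 kPa. Mature let-7 was not measured.

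Partner proteins of the network, chiefly chromatin complexes, had 13 of 15 genes tested at day 3.5, none called and none with an unadjusted p below 0.05 in the authors' deposited table, and a median change of -0.02. The corepressor TRIM28 was at 639 FPKM on 400 Pa and 632 FPKM on 60 kPa, and the deacetylase HDAC2 at 221 FPKM on 400 Pa and 188 FPKM on 60 kPa. The remodeller CHD4 was at 142 FPKM on 400 Pa and 149 FPKM on 60 kPa, and the demethylase KDM1A at 142 FPKM on 400 Pa and 150.1 FPKM on 60 kPa. Over induction 0 of 13 were at least 2-fold lower on either gel.

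Relatives of the members by protein family (SOX, SALL, POU, PRDM and YY1 genes) had 16 of 21 tested at day 3.5, with a median change of -0.36. Of these 2 were called, both higher on 60 kPa, beside 0.252% of all genes tested. SOX21, a repressor in the SOXB group that also includes SOX2, was at 7.35 FPKM on 400 Pa and 30.1 FPKM on 60 kPa (change -1.90, implied SE 0.85; q = 0.00783 in the authors' deposited table). At day 0 SOX21 was at 14.0 FPKM on 400 Pa and 8.57 FPKM on 60 kPa (p = 0.0559 in the authors' deposited table). POU3F1, a POU factor of neural and epithelial cells, was at 0.424 FPKM on 400 Pa and 2.96 FPKM on 60 kPa (change -1.47, implied SE 0.87; q = 0.0346 in the authors' deposited table). Both fell on the soft gel relative to the stiff gel.

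**Figure D4:**
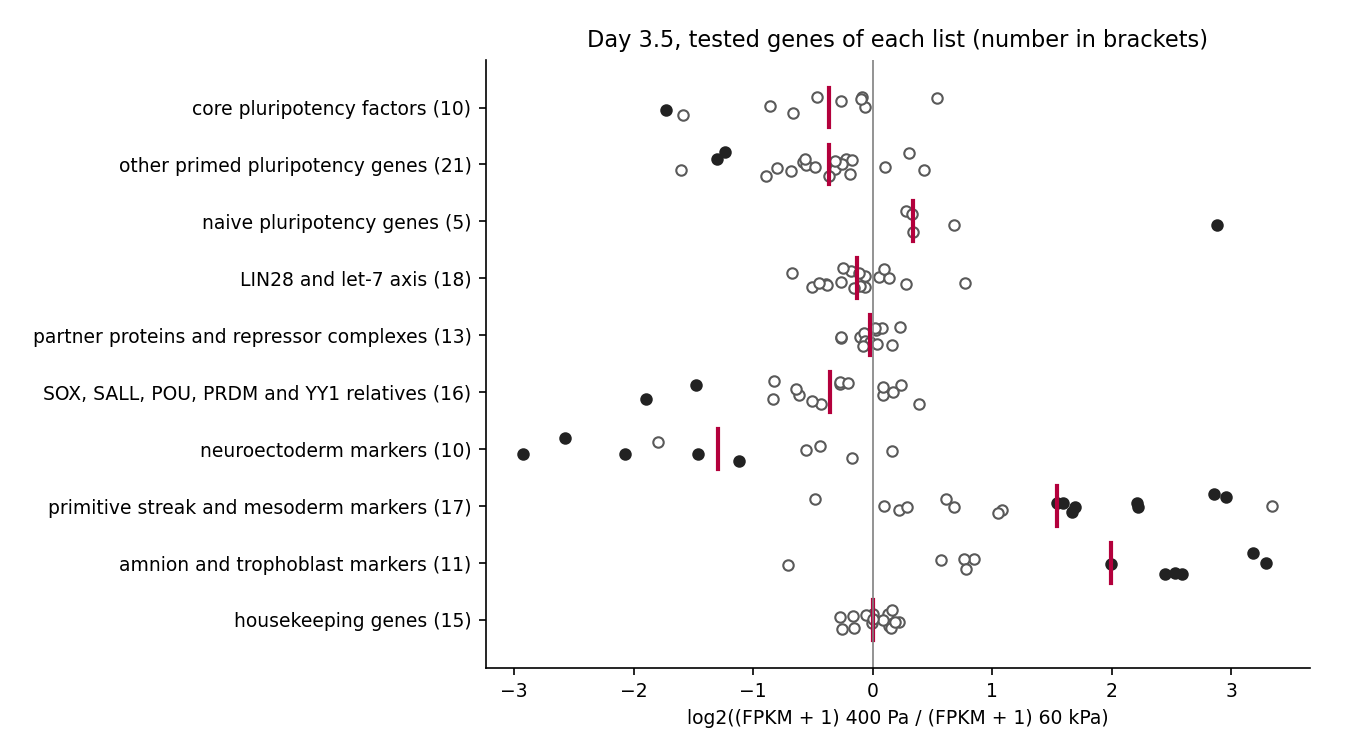
Stiffness change at day 3.5, log2((FPKM + 1) 400 Pa / (FPKM + 1) 60 kPa), of the tested genes of 10 lists, 1 point per gene, filled where q was below 0.05 in the authors' deposited table, with the list median as a bar and the number tested in brackets. The members (median -0.37) and the other primed genes (median -0.36) lie mostly below 0, the mesoderm markers mostly above 0 and the housekeeping genes (median -0.00) around 0.

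Markers of other cell types, in lists chosen with earlier results of these data known, differed between the gels at day 3.5 as well. Of 17 tested primitive streak and mesoderm markers 8 were called (HAND1, ISL1, GATA6, MEIS1, FOXF1, TBX20, MSX1 and MSX2), all higher on 400 Pa, where the share of all genes was 1.09%, and their summed level was 331 FPKM on 400 Pa and 92.2 FPKM on 60 kPa. Among them HAND1, a basic helix-loop-helix factor of lateral mesoderm, had a level of 53.8 FPKM on 400 Pa and 6.07 FPKM on 60 kPa. The streak and early mesoderm genes T, MIXL1, EOMES, MESP1 and MESP2 were tested, and none of them was called. T had a change of 1.08 (p = 0.024 and q = 0.594 in the authors' deposited table). The changes were smaller for MIXL1 (0.22), EOMES (0.28) and MESP1 (0.68), and MESP2 (-0.48) was higher on 60 kPa. Of 10 tested neuroectoderm markers 5 were called (OTX2, HESX1, LHX5 and FEZF1 among them), all higher on 60 kPa, where the share of all genes was 0.252%. The list had a summed level of 144 FPKM on 400 Pa and 379 FPKM on 60 kPa. OTX2, a head and forebrain factor that is also present in primed pluripotent cells, was at 69.3 FPKM on 400 Pa and 152 FPKM on 60 kPa, and FEZF1, a forebrain factor, at 15.8 FPKM on 400 Pa and 99.4 FPKM on 60 kPa. At day 0 the neuroectoderm list lay the other way, with 4 of 5 tested genes above 0, a median change of 0.72 and none called. Beside 1.86% of all genes tested, 3 of the 5 had an unadjusted p below 0.05. Of these OTX2 was at 136 FPKM on 400 Pa and 82.2 FPKM on 60 kPa (p = 0.0074 in the authors' deposited table). The difference between days was not tested for the list. Of 11 tested amnion and trophoblast markers 6 were called (CDX2, VTCN1, IGFBP3, KRT7, HEY1 and GABRP), all higher on 400 Pa, beside the same 1.09% of all genes. The list had a sum of 335 FPKM on 400 Pa and 54.4 FPKM on 60 kPa. No marker of these 3 lists was listed at 0 on either gel at day 3.5. The neural marker SOX1, however, was at only 0.0101 FPKM on 400 Pa and 0.0267 FPKM on 60 kPa, and was not tested. PAX6 was at 17.2 FPKM on 400 Pa and 19.6 FPKM on 60 kPa and was not called. Of the 10 tested neuroectoderm markers, 9 had a change below 0, beside 48.1% of all genes tested. SOX2 is itself active in neural cells, and the part of these cell types in the values of SOX2, PRDM14, LIN28A and SALL4 was not tested.

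Of the smaller marker lists at day 3.5, definitive endoderm had 1 call of 4 tested (RHOBTB3, higher on 400 Pa), the haemato-endothelial list 2 of 6 (FLI1 higher on 400 Pa and VWF higher on 60 kPa) and the fibroblast list 3 of 8 (LUM, DCN and COL3A1, higher on 400 Pa). The share of all genes called in either direction was 1.34%. The germ cell list, to which PRDM14 is related by function, had 0 calls of 4 tested in the authors' deposited table. Beside 5.93% of all genes tested, 1 of the 4 had an unadjusted p below 0.05. That gene was DAZL, an RNA-binding protein of germ cells, at 1.27 FPKM on 400 Pa and 5.80 FPKM on 60 kPa (p = 0.002 and q = 0.120 in the authors' deposited table). KIT, SOX15 and PRDM1 were tested and not called, and DDX4, a defining germ cell marker, was listed at 0 on 400 Pa. Of 15 housekeeping genes none was called, with a median change of -0.00. They included EEF1A1, RPLP0, ACTB and GAPDH, the last at 1559 FPKM on 400 Pa and 1421 FPKM on 60 kPa. At day 0 TFAP2A, an amnion and trophoblast marker higher on 400 Pa, was the only gene of all these lists to be called, beside 0.139% of all genes tested.

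Genes whose pattern over the 4 groups was most like that of a member were found among 10484 named genes with at least 5 FPKM in a group, by the root mean square distance between centred log2(FPKM + 1) values. The 4 groups give little to distinguish patterns by, so likeness is a description. The nearest to POU5F1 were CTD-2306M5.1 (0.03), VASH2 (0.04) and its own retrocopy POU5F1P3 (0.05). The nearest to NANOG were THY1 (0.08), a cell surface glycoprotein found on human pluripotent cells, PDZD4 (0.09) and POLR3G (0.12). The nearest to SOX2 were FILIP1 (0.08), Z83851.1 (0.10) and TSSC2 (0.13). PRDM14 had no gene within 0.1, and the nearest were LINC00599 (0.19), RN7SL605P (0.20) and DAZL (0.27), with DAZL at 22.9 FPKM on 400 Pa and 25.3 FPKM on 60 kPa at day 0. Among the members themselves, POU5F1 was nearest to L1TD1 (0.13), SOX2 to LIN28A (0.33), and NANOG (0.37) and PRDM14 (0.55) to DPPA4.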

How the data were processed

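RNA of H9 cells was recovered with TRIzol as total RNA, per the labels' protocols. Per the submitters' processing notes, Cufflinks and the hg19 build were used by the authors. The sources used here do not give versions, aligner, annotation or strand setting. Each deposited table (1 per day) lists for every locus the authors' FPKM of both gels, their log2 ratio (60 kPa over 400 Pa) and the score, p-value and q-value of their own test. Depth per library is unknown, and no test over libraries was possible. A Benjamini-Hochberg adjustment recomputed over the tested loci (20670 at day 3.5 and 19486 at day 0) returned the deposited q-values.

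A gene was called at q below 0.05 in the authors' deposited table, among loci they tested with at least 1 FPKM in a group, each symbol once by its highest-mean row. Changes use a pseudocount of 1, which understates those of low genes. Starts were written 1-based. The difference between days used the implied errors, which are approximate because the authors' statistic did not behave as a normal score. The members and the 14 other lists (192 distinct genes) were chosen with earlier results of these data known. All members were named, as was every called gene of another list except 1 that is not reported here, or otherwise up to 4 with the highest mean FPKM. Genes of like pattern were the 3 nearest to POU5F1, NANOG, SOX2 and PRDM14 at single-gene loci. KLF17, DDX4, HAND2, GATA4, KDR, SOX1, PAX6, T, MIXL1, EOMES, MESP1, MESP2, the LEFTY genes and the microRNA rows were named, after their values were seen. Simulated data, drawn with the implied errors themselves, served to test the steps and cannot check those errors. The steps were run with scipy 1.17.1 and numpy 2.4.6, and the tables and figures were made with pandas 2.3.3, matplotlib 3.10.9 and Python 3.11.15.

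In each group the 10 highest loci held between 44.9% and 52.1% of the summed FPKM. Alternatives were other pseudocounts, FPKM minimums, thresholds and scalings, and leaving out single members, the last chosen after seeing the data.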

Additional observations from a re-analysis of the deposited data

How the results depend on the processing

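No paired analysis was possible because the tables hold 1 pooled FPKM per group and no value per library, and for the same reason no library could be left out. The alternatives, applied to each result in turn, gave 415 values to set beside the main ones. Many of these could not move. Calls rest on the deposited q, which no pseudocount changes, and a stricter q leaves the change of a gene as it is. Stability in such cases was fixed in advance and is no support. Counts over all loci moved by more than 1.5 times in 3 of the 415. At q below 0.01 the called loci numbered 129 at day 3.5, against 244 at q below 0.05, and 0 at day 0, against 24 at q below 0.05 and 322 at an unadjusted p below 0.05 in the authors' deposited table. With implied errors 1.5 times as large, 4 loci differed between days in place of 11. These follow from the stricter threshold or larger error. In the alternatives run, PRDM14 was the only called member at day 3.5, with changes between -1.92 and -1.73. No member was called at day 0 or passed the conservative test of a difference between days. The median member change ran between -0.47 and -0.27 at day 3.5 and between -0.01 and 0.02 at day 0. That day 0 median, positive in the main setting, was -0.01 both with an FPKM minimum of 5 and with changes centred on the median gene. The LIN28A change over induction on 60 kPa ran between -0.16 and -0.02.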

Other observations

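The network also drives a microRNA cluster, and LIN28A acts on another microRNA family, so the rows of their precursors were read, chosen after their values were seen. The cluster of MIR302A, MIR302B, MIR302C, MIR302D and MIR367, which lies within LARP7 on chromosome 4, is 1 merged row in the authors' tables. It was at 1558 FPKM on 400 Pa and 3435 FPKM on 60 kPa at day 3.5, and at 3956 FPKM on 400 Pa and 3602 FPKM on 60 kPa at day 0. The day 3.5 value on the soft gel was the lowest of the 4, and the other 3 were close to each other. The change at day 3.5 was -1.14 (implied SE 0.99; p = 0.242 in the authors' deposited table), which did not pass the test. LARP7, in the same interval, was at 136 FPKM on 400 Pa and 256 FPKM on 60 kPa at day 3.5 (p = 0.119 in the authors' deposited table), and at 279.9 FPKM on 400 Pa and 236 FPKM on 60 kPa at day 0. Reads of both rows overlap and cannot be told apart, FPKM of features this short is unstable, and mature microRNAs were not measured. The row that merges MIRLET7A1, MIRLET7D and MIRLET7F1 with RP11-2B6.2 and RP11-2B6.3 on chromosome 9, and cannot be split between them, was at 4.84 FPKM on 400 Pa and 3.37 FPKM on 60 kPa at day 3.5 (change 0.42, implied SE 1.28; p = 0.409 in the authors' deposited table), and at 3.61 FPKM on 400 Pa and 3.21 FPKM on 60 kPa at day 0.

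The mature microRNAs named in these rows (RefSeq, GRCh38.p14) are shown with the seed, bases 2 to 8, in capitals. The 4 miR-302 sequences share the seed AAGUGCU, miR-367 has another, and the let-7 members share GAGGUAG, the family whose maturation LIN28A and LIN28B block.
hsa-miR-302a-3p: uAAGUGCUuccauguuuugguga
hsa-miR-302b-3p: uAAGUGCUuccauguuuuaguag
hsa-miR-302c-3p: uAAGUGCUuccauguuucagugg
hsa-miR-302d-3p: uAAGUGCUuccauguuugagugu
hsa-miR-367-3p: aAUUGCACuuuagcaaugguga
hsa-let-7a-5p: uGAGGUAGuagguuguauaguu
hsa-let-7d-5p: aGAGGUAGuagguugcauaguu
hsa-let-7f-5p: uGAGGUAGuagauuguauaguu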
